A study of Mus musculus with 6 samples.

Results

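The Zic genes encode transcription factors with C2H2 zinc fingers that resemble those of the Gli proteins, the mediators of Hedgehog signaling. *Zic1*, *Zic2*, *Zic4* and *Zic5* are described here across 3 RNA-seq conditions of mouse neuromesodermal progenitors (NMPs), bipotent cells of the caudal epiblast whose descendants form spinal cord and presomitic mesoderm. They are 4 of the 20631 genes in the data, and their rows were found by gene symbol. The 4 genes were selected by a choice made with their measured levels and their response to retinoic acid (RA) in these same samples in view. Their values are therefore given as a description, with no p-value. The NMPs were made from mouse embryonic stem cells (ESCs) by 2 days in bFGF and 1 day in bFGF with CHIR99021, a WNT agonist. Both factors were then removed, and the cells spent 2 h in N2B27 medium with the DMSO vehicle, with 25 nM RA or with 1 µM RA, 2 samples per condition. All 3 conditions share this derivation and a B27 supplement free of retinoids, so that the added RA was the only difference given between them. The 2 samples of a condition came from different dishes and are technical replicates in the words of the methods, so the spread and the p-values below reflect dishes of 1 experiment. The methods describe C57BL/6 ESCs grown on feeder cells, whereas the sample labels name the 129 R1 line. This difference was not resolved here.

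In vertebrate embryos *Zic2* is transcribed in the epiblast and later in the dorsal neural tube, and its loss leads to holoprosencephaly and to failure of neural tube closure. *Zic5* lies beside *Zic2* in the genome and is known for roles in neural tube closure and neural crest formation. *Zic1* and *Zic4* form a second such pair and are best known from the dorsal neural tube and the cerebellum. In each pair the genes lie head to head, on opposite strands.

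Libraries were made from total RNA depleted of ribosomal RNA, and each sample has an estimated read count and an RPKM value (reads per kilobase of transcript, scaled to library size) for each RefSeq transcript. Where a gene has several transcripts, its RPKM below is the sum over them, which can exceed a value given for 1 transcript. The sum of the estimated counts ranged from 31753556 to 42029348 over the samples. As a check of the treatment, the established RA response genes *Cyp26a1* and *Rarb* were called higher at both doses, with log2 fold changes of 2.40 and 4.89 at 1 µM RA. Of 11 genes of NMPs and the caudal epiblast, 10 were tested, and 5 rose and 3 fell at 1 µM RA. At this dose 19.7% of all genes tested were called in either direction. The NMP marker *T* had 375 ± 6.98 RPKM (SD, n = 2) in DMSO and 370 ± 4.72 RPKM with 1 µM RA. *Nkx1-2* rose from 39.1 ± 0.250 to 77.7 ± 4.04 RPKM (adjusted p = 4.0e-70 by edgeR's likelihood ratio test) and *Sox2* from 5.20 ± 0.00892 to 16.3 ± 1.35 RPKM (adjusted p = 3.1e-112 by the same test). *Sp5*, *Sp8* and *Fgf8* fell, by 0.67, 0.37 and 0.26 on the log2 scale (adjusted p = 3.8e-15, 5.3e-07 and 7.7e-05 by the same test).

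Each of the 4 Zic genes has 1 transcript in the files. *Zic2* (NM_009574) lies on the plus strand of mouse chromosome 14 at chr14:122475384-122480328 of mm10, with a transcript of 2967 bases. *Zic5* (NM_022987) lies on the minus strand at chr14:122459160-122465658, with a transcript of 2383 bases. *Zic1* (NM_009573) lies on the minus strand of chromosome 9 at chr9:91360345-91365799 and *Zic4* (NM_009576) on the plus strand at chr9:91368972-91389348, with transcripts of 3350 and 4088 bases. The start sites of *Zic5* and *Zic2* are 9726 bases apart and those of *Zic1* and *Zic4* 3173 bases. The 4 genes are paralogs, so the first question for their values is whether a read of 1 gene could be counted for another. The coding sequences below were taken from the GENCODE vM21 transcripts (GRCm38, the same build as mm10). They show 90 coding bases around the longest run that *Zic2* and *Zic5* have in common, with the best ungapped match in *Zic1* and *Zic4*. Capitals mark each base that differs from *Zic2*, and an intron interrupts the stretch in every gene.
Zic2: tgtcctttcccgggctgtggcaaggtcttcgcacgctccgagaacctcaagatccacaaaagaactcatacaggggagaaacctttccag
Zic5: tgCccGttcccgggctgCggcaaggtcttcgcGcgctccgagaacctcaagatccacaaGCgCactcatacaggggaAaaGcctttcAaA
Zic1: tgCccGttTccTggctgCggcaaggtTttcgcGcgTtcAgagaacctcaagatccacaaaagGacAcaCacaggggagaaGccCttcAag
Zic4: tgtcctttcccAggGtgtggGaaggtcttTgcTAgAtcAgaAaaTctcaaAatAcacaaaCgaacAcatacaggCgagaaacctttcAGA
These stretches span chr14:122476675-122478556 (plus strand) in *Zic2*, chr14:122459759-122463964 (minus) in *Zic5*, chr9:91362606-91364108 (minus) in *Zic1* and chr9:91379330-91384030 (plus) in *Zic4*. *Zic5* equals *Zic2* at 79 of the 90 bases, *Zic1* at 75 and *Zic4* at 72. The longest exact run shared by *Zic2* and *Zic5* was 26 bases, and the longest shared by any pair of the 4 was 42 bases, between *Zic1* and *Zic4*. Reads were 50 bases long. None of the 6 pairs of these GENCODE transcripts shared an exact stretch of 50 bases in the direction of transcription. An error-free read of 1 of them in that direction matches only that one of the 4. The counted RefSeq transcripts differ from them in length, for *Zic2* 2967 bases against 2440 in GENCODE. Bases found only in the RefSeq transcripts were not compared, and neither were matches to the opposite strand. Reads aligned with mismatches were not examined.

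*Zic2* was the most abundant of the 4 and was lower in every RA-treated sample than in either DMSO sample. Its RPKM was 32.3 and 29.7 in DMSO, 21.5 and 21.2 at 25 nM RA, then 19.2 and 17.4 at 1 µM RA. The duplicates of a condition lay close together, and no 2 of the 3 conditions overlapped. So few samples can separate by chance, and the share of all genes that separate in this way is not given here. These levels rest on estimated counts of 2271 to 4939 per sample. In DMSO the mean was 31.0 ± 1.88 RPKM (SD, n = 2), above 89.5% of all genes, and with 1 µM RA it was 18.3 ± 1.25 RPKM, above 82.8% of genes. The log2 fold change against DMSO was -0.54 (standard error 0.08) at 25 nM RA and -0.77 (standard error 0.08) at 1 µM RA. Of the decrease in mean RPKM seen at 1 µM RA, 75.8% was present at 25 nM RA. In bulk samples such as these, fewer cells that carry a transcript and less of it per cell cannot be told apart.

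*Zic5* also was lower in every RA-treated sample. The DMSO samples had 6.65 and 6.95 RPKM, those at 25 nM RA 5.64 and 5.72, and those at 1 µM RA 3.98 and 4.45. The 3 conditions again did not overlap, and the larger step lay between the doses of RA. In RPKM the samples at 1 µM RA separated from DMSO in all 4 Zic genes. These include the barely transcribed *Zic1*, with no more than 12 counts in any sample, and *Zic4*, which lay higher at 1 µM RA. Separation alone is therefore read only as a description. Estimated counts were 412 to 816 per sample. The log2 fold change against DMSO was -0.26 (standard error 0.12) at 25 nM RA and -0.70 (standard error 0.12) at 1 µM RA, and 43.4% of the decrease in mean RPKM at the higher dose was present at the lower one. Between 1 µM and 25 nM RA the log2 fold change was -0.43 (standard error 0.12) for *Zic5* and -0.23 (standard error 0.08) for *Zic2*. The ratio of *Zic2* to *Zic5* RPKM was 4.86 and 4.27 in DMSO, 3.82 and 3.71 at 25 nM RA, then 4.81 and 3.91 at 1 µM RA. It was lowest in both samples with 25 nM RA, but 3.82 there and 3.91 at 1 µM RA lie close together, and this order was not tested. The DMSO and 1 µM RA samples overlapped.

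**Figure D1:**
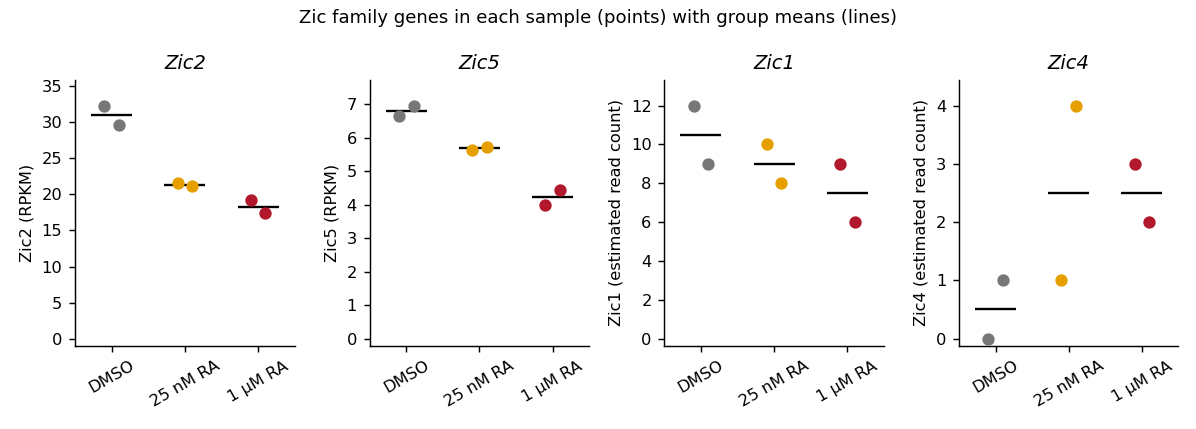
Levels of the 4 Zic genes in each of the 6 samples, as RPKM for *Zic2* and *Zic5* and as estimated read counts for *Zic1* and *Zic4*, against the condition. Points are samples and lines are means of 2. *Zic2* and *Zic5* step down from DMSO to 25 nM RA to 1 µM RA without overlap, whereas *Zic1* has no more than 12 reads and *Zic4* no more than 4 in any sample. The share of all genes that separate in this way is not given.

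*Zic1* and *Zic4* were barely transcribed in these cells. *Zic1* had estimated counts of 12 and 9 in DMSO, 10 and 8 at 25 nM RA, then 9 and 6 at 1 µM RA, or between 0.0407 and 0.0776 RPKM. Its log2 fold change was -0.09 (standard error 0.64) at 25 nM RA and -0.38 (standard error 0.66) at 1 µM RA, so that a change of the size seen for *Zic2* was not detectable at this depth. *Zic4* had counts of 0 and 1 in DMSO, 1 and 4 at 25 nM RA, then 3 and 2 at 1 µM RA. A count of 0 allows up to 3 counts, and 3 counts amount to between 0.0142 and 0.0191 RPKM of *Zic4* depending on the sample. No fold change is given for *Zic4*, whose groups lie around this limit. The order of the levels per length, *Zic2* above *Zic5* above *Zic1* above *Zic4*, was the same in all 6 samples. *Zic1* and *Zic4* are nearest to each other in this order: the summed counts in DMSO were 21 (exact Poisson 95% interval 13 to 32.1) against 1 (0.0253 to 5.57), and with 1 µM RA 15 (8.40 to 24.7) against 5 (1.62 to 11.7), where the intervals overlap. Such intervals cover counting error only.

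Transcripts were compared by the test that the methods name, the likelihood ratio test (LRT) of edgeR's generalized linear model, in 1 fit of all 6 samples, and a call means a Benjamini-Hochberg adjusted p under 0.1 over all transcripts tested. Of the 4 transcripts, 3 passed the filter on low counts and *Zic4* did not. At 25 nM RA, 1 of the 4 (*Zic2*) was called lower, beside 1.44% of all transcripts tested. At 1 µM RA, 2 of the 4 (*Zic2* and *Zic5*) were called lower, beside 4.50% of all transcripts. Between the doses, 1 of the 4 (*Zic5*) was called lower at 1 µM RA, beside 1.10% of all transcripts. By edgeR's quasi-likelihood test none of the 4 was called between the doses, with 2 of the 4 at an unadjusted p under 0.05. By the LRT the call of *Zic5* between the doses was lost without either 25 nM RA sample, and without 1 µM RA replicate 1 *Zic2* was called in its place. With counts summed per gene, *Zic2* and *Zic5* were called lower in all 3 comparisons, beside 8.05%, 19.7% and 3.41% of all genes called in either direction. The genes were chosen on these contrasts, so nothing is read from these counts.

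For repressed genes the study set limits on RPKM (7) and on the log2 fold change (0.6) beside the adjusted p, without saying to which samples the RPKM limit applied. They were read here as a DMSO mean above 7 RPKM and a log2 fold change below -0.6. At 25 nM RA, 0.0272% of the transcripts tested met these criteria with the call, and no Zic transcript did, *Zic2* lying just outside with a log2 fold change of -0.54. At 1 µM RA, 0.118% met them, *Zic2* among these. On this reading *Zic5* lay just outside at 1 µM RA, with a log2 fold change past the limit and a DMSO mean of 6.80 RPKM. The deposited RPKM values divide by more reads than the estimated counts sum to. On TMM-scaled sums of the estimated counts, where TMM is edgeR's scaling between libraries, the DMSO mean of *Zic5* was 8.31 RPKM, above that limit.

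**Figure D2:**
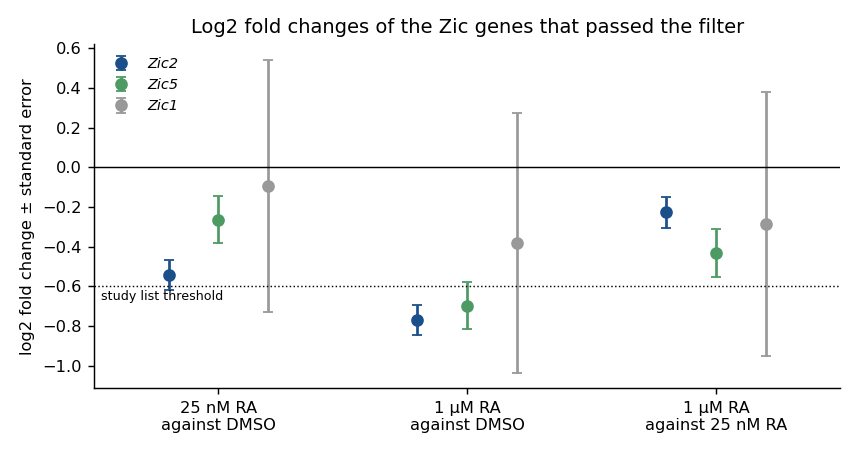
Log2 fold changes of the 3 Zic transcripts that passed the filter, with standard errors from the fit (bars), for the 3 comparisons on the horizontal axis. The dotted line is the limit of -0.6, which *Zic2* passes at 1 µM RA (-0.77) and not at 25 nM RA (-0.54), and the bars of *Zic1* reach across 0 in each comparison.

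The long non-coding RNA gene *2610035F20Rik* (NR_045046, minus strand, chr14:122470377-122475199) lies between *Zic5* and *Zic2*, and 184 bases separate its start site from that of *Zic2*. It is described for its position. Its RPKM was 4.38 and 3.56 in DMSO, 2.65 and 2.02 at 25 nM RA, then 1.76 and 2.45 at 1 µM RA. Both doses lay below DMSO and overlapped each other. In the fit of summed counts it fell by 0.79 on the log2 scale at 25 nM RA (standard error, SE, 0.16, adjusted p = 4.1e-05 by edgeR's LRT) and fell by 0.92 at 1 µM RA (SE 0.16, adjusted p = 4.4e-07 by edgeR's LRT). The higher dose differed from the lower one by -0.13 (SE 0.18, adjusted p = 0.81 by edgeR's LRT). In the files its transcript does not overlap that of *Zic2*. The ratio of *Zic2* to *2610035F20Rik* RPKM was 7.38 and 8.34 in DMSO, 8.13 and 10.5 at 25 nM RA, then 10.9 and 7.09 at 1 µM RA, so that the conditions overlapped.

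The next genes on either side of the pair did not pass the test. *Clybl*, an enzyme gene of citramalate metabolism that lies 56.9 kb before *Zic5*, had 10.5 ± 0.564 RPKM in DMSO and 10.8 ± 0.281 RPKM with 1 µM RA (adjusted p = 0.80 by edgeR's LRT). *Pcca*, which encodes a subunit of propionyl-CoA carboxylase and lies 54.0 kb after *Zic2*, had 6.74 ± 0.118 and 6.09 ± 0.275 RPKM (adjusted p = 0.13 by edgeR's LRT). *Ggact*, the next gene after it, had 7.45 ± 0.937 and 7.95 ± 0.00334 RPKM (adjusted p = 0.66 by edgeR's LRT). At 25 nM RA the adjusted p of these 3 genes was 0.85, 0.95 and 0.79 by edgeR's LRT. *Gm5089*, nearest to *Zic5* at 8.01 kb, was at 0.116 RPKM in DMSO and did not pass the filter on low counts. Around *Zic1* and *Zic4* the nearest genes lie much farther away. *Tbc1d2b* and *Plscr1*, at 1090 kb and 861 kb, were not called at 1 µM RA (adjusted p = 0.13 and 0.91 by edgeR's LRT). *Adamts7*, a metalloprotease gene at 1160 kb, was called lower at 1 µM RA, with a difference of -0.38 on the log2 scale (SE 0.16, adjusted p = 0.094 by edgeR's LRT), and edgeR's quasi-likelihood test did not call it (adjusted p = 0.14). *Mir6386*, inside *Plscr1*, was not above 0.250 RPKM in the mean of any condition and was not tested.

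**Figure D3:**
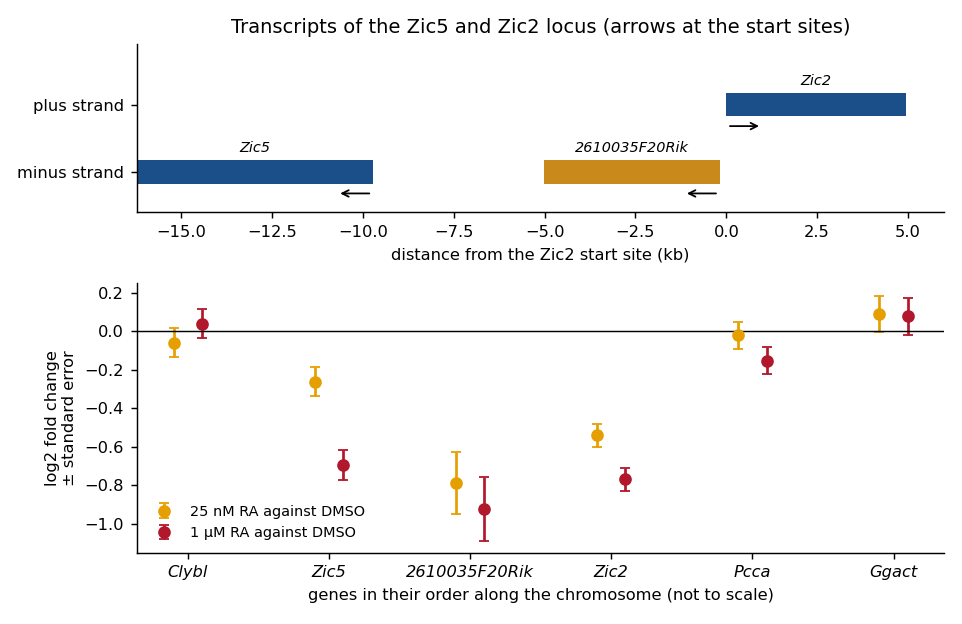
Upper panel, the transcripts of *Zic5*, *2610035F20Rik* and *Zic2* by strand against the distance from the *Zic2* start site in kb, with arrows in the direction of transcription. Lower panel, log2 fold changes with standard errors (bars) from counts summed per gene at both doses of RA, for these genes and their measured neighbors in chromosomal order. *Zic5*, *2610035F20Rik* and *Zic2* lie below 0 at both doses, whereas *Clybl*, *Pcca* and *Ggact* lie between -0.15 and 0.09.

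Of *Zic2* and *Zic5*, which both stepped down at each dose, only *Zic5* has an entry among the RefSeq promoters, so its promoter is shown. RA receptors act at promoters and enhancers, and whether they act at *Zic5* was not tested. The 250 bases before its RefSeq start were searched for motifs (GRCm38.p6, minus strand, chr14:122465659-122465908, written 5′ to 3′), with the 1 motif match found in capitals.
Zic5 promoter: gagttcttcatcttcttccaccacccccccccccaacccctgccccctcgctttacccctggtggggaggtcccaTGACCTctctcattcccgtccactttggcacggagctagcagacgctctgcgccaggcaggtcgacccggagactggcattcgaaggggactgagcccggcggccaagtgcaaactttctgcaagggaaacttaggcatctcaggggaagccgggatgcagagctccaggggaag
The capitals are the nuclear receptor half-site AGGTCA read on the opposite strand, from 175 to 170 bases before the start. That half-site occurs on either strand in 14% of the 32851 promoters of the RefSeq table. RA receptors bind pairs of such half-sites, and the direct repeats DR1, DR2 and DR5 (spaced by 1, 2 and 5 bases, with half-sites in which A or G was allowed as base 1 and G or T as base 3) were searched on both strands. None was found in the window of *Zic5*, and each occurs in at most 0.174% of all promoters. The GC box GGGCGG occurs in 32.7% of promoters and was not in the *Zic5* window. The same held for the CCAAT box, present in 33.8% of promoters, for the TATA box TATAAA, present in 12.4%, and for the E-box CACGTG, present in 6.02%. The *Zic1* window held 2 CCAAT boxes, 2 GC boxes and 1 E-box, and the *Zic4* window held none of the motifs searched. Bases G and C made up 62.4% of the *Zic5* window, 66.0% of that of *Zic1* and 44.4% of that of *Zic4*, against a median of 52.4%. The promoter table has no *Zic2* entry. These matches are letters in a window and do not show binding.

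The genes whose pattern over the 6 samples was nearest to a Zic gene were found from log2 CPM (counts scaled to the library size) profiles, each centred on its own mean, by Euclidean distance among 11094 other genes with a mean of at least 1 RPKM. Nearest to *Zic2* was *Zfp36l2*, an RNA-binding protein of mRNA decay, at a distance of 0.0632. Its RPKM was 13.5 and 12.5 in DMSO, 9.14 and 8.61 at 25 nM RA, then 7.77 and 7.17 at 1 µM RA. It stepped down over the conditions without overlap, as *Zic2* did. *Fst*, which encodes the activin antagonist follistatin, followed at 0.0732, with 111 and 104, 73.5 and 73.5, and 65.6 and 63 RPKM. *Cited2*, a coregulator of CBP and p300, came next at 0.119, with 11.2 and 10.4, 7.99 and 7.29, and 6.35 and 5.98 RPKM. For comparison, the *Zic2* profile lay 0.801 from a flat one and 0.381 from that of *Zic5*. Nearer to *Zic2* than *Zic5* was were 131 genes.

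Nearest to *Zic5* were *Mtss1l* at 0.128, *Lrrc4b*, a synaptic adhesion protein, at 0.139 and *Fn1*, the matrix protein fibronectin, at 0.156. *Mtss1l* had 2.43 and 2.45 RPKM in DMSO, 2.11 and 1.96 at 25 nM RA, then 1.50 and 1.68 at 1 µM RA. *Fn1* had 48 and 51.1, 39.2 and 42.8, and 32.1 and 33.1 RPKM in the same order. In *Mtss1l* and *Fn1*, too, the 1 µM RA samples lay below all others. These genes were selected by their likeness, so the likeness is a description with no test.

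**Figure D4:**
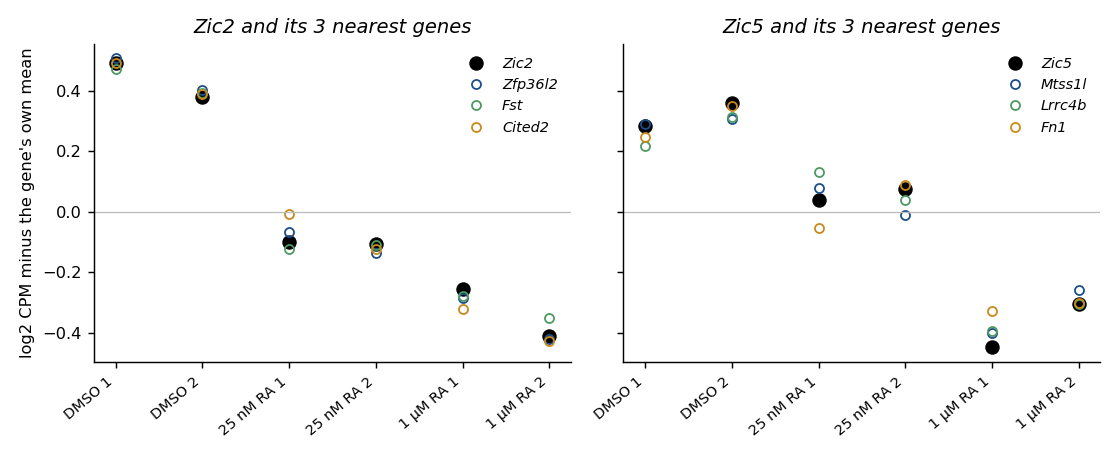
Log2 CPM minus the mean of each gene over the 6 samples, for *Zic2* (left) and *Zic5* (right, filled points) and the 3 genes nearest to each (open points). The samples of *Zic2* and its neighbors with 25 nM RA lie nearer to those with 1 µM RA than to DMSO. For *Zic5* the step to 1 µM RA is the larger one in the means, a difference that was not tested.

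The zinc fingers of Zic proteins are related to those of the Gli and Glis proteins. Of the 6 Gli and Glis genes, all tested, 2 rose and none fell at 25 nM RA by edgeR's LRT, with 1 lower at an unadjusted p under 0.05, and 2 rose and 3 fell at 1 µM RA, with median log2 fold changes of 0.01 and -0.28 beside -0.00051 and 0.0013 over all genes. Of all genes tested, 8.05% were called in either direction at 25 nM RA and 19.7% at 1 µM RA. *Glis2* had the largest change, from 3.28 ± 0.179 RPKM in DMSO to 7.25 ± 0.733 RPKM with 25 nM RA and 6.79 ± 0.109 RPKM with 1 µM RA. At the higher dose this was an increase of 1.05 on the log2 scale (SE 0.08, adjusted p = 5.2e-39 by edgeR's LRT). *Gli1*, a target of Hedgehog signaling and an activator in it, rose by 0.48 at 25 nM RA and by 0.33 at 1 µM RA on the log2 scale (adjusted p = 0.00056 and 0.029 by edgeR's LRT), calls that DESeq2's Wald test did not make (adjusted p = 0.12 and 0.28). *Gli2*, *Gli3* and *Glis3* fell at 1 µM RA, by 0.69, 0.29 and 0.72 on the log2 scale (adjusted p = 6.4e-05, 2.1e-05 and 0.00036 by edgeR's LRT). *Gli3*, with 3.92 ± 0.0321 RPKM in DMSO and 3.21 ± 0.217 RPKM at 1 µM RA, was the most abundant of these, and *Gli2* and *Glis3* were below 1 RPKM in DMSO.

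Of 18 genes of the Hedgehog pathway, in which Gli proteins act, 16 were tested. At 25 nM RA 2 rose and 1 fell, and at 1 µM RA 2 rose and 4 fell, with median log2 fold changes of -0.04 and -0.07, where 8.05% and 19.7% of all genes were called. The coreceptor gene *Boc* rose from 1.16 ± 0.0487 to 2.40 ± 0.209 RPKM with 1 µM RA (log2 fold change 1.04, adjusted p = 1.3e-24 by edgeR's LRT). *Hhip*, which encodes a ligand-binding inhibitor of the pathway, rose by 2.61 on the log2 scale (adjusted p = 4.3e-23 by edgeR's LRT) from a level of only 0.0373 ± 0.0135 RPKM. The receptor gene *Ptch1* fell at both doses, from 6.86 ± 0.0541 RPKM to 5.67 ± 0.0652 RPKM with 25 nM RA and 5.02 ± 0.289 RPKM with 1 µM RA (adjusted p = 0.00020 and 6.1e-12 by edgeR's LRT). At 1 µM RA the inhibitor *Sufu* and the signal transducer *Smo* also fell, by 0.28 and 0.16 on the log2 scale (adjusted p = 0.0020 and 0.0078 by edgeR's LRT). The ligand genes *Shh* and *Dhh* did not pass the filter on low counts.

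Zic proteins take part in forming the border of the neural plate and the neural crest. Of 23 factors of these tissues, 18 were tested, of which 6 rose and 4 fell at 25 nM RA and 7 rose and 6 fell at 1 µM RA, with median log2 fold changes of -0.0033 and 0.08, beside 8.05% and 19.7% of all genes called. The homeobox gene *Gbx2* rose most in level, from 1.80 ± 0.0222 RPKM in DMSO to 15.7 ± 0.0993 RPKM with 25 nM RA and 22.8 ± 0.738 RPKM with 1 µM RA (log2 fold changes 3.13 and 3.66). *Dlx3*, *Prdm1* and *Sox8* rose at both doses and fewer reads lay behind them, with 0.0595 ± 0.0314, 0.919 ± 0.0434 and 0.376 ± 0.00816 RPKM in DMSO, and the call of *Sox8* at 25 nM RA (adjusted p = 0.047 by edgeR's LRT) was lost by edgeR's quasi-likelihood test (adjusted p = 0.10) and by DESeq2 (0.59). *Foxd3*, a factor of both epiblast and neural crest, fell from 0.432 ± 0.0480 RPKM to 0.148 ± 0.0856 RPKM with 25 nM RA and 0.0820 ± 0.00756 RPKM with 1 µM RA (adjusted p = 8.1e-06 and 2.3e-10 by edgeR's LRT). *Myc* fell from 11.6 ± 1.07 to 7.71 ± 0.740 and 6.27 ± 0.738 RPKM (log2 fold changes -0.60 and -0.90). By edgeR's LRT *Msx1* fell at both doses (log2 fold changes -0.41 and -0.47, with adjusted p = 0.44 and 0.11 by DESeq2's Wald test) and *Snai2* at 1 µM RA (log2 fold change -0.95, adjusted p = 0.038 by edgeR's LRT), where DESeq2 gave no adjusted p for *Snai2* or *Foxd3*.

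*Zic2* belongs to the genes of the epiblast. Of 19 epiblast factors, all tested, 4 rose and 3 fell at 25 nM RA and 3 rose and 6 fell at 1 µM RA, with median log2 fold changes of -0.0065 and -0.07. The shares of all genes called were 8.05% and 19.7%. *Sox2* rose most, with log2 fold changes of 1.56 and 1.64, and the TGFβ ligand gene *Nodal* rose from 17.4 ± 0.640 to 22.2 ± 0.213 and 23.9 ± 0.378 RPKM. *Pou3f1* rose by 0.35 and 0.31 on the log2 scale, and *Dnmt3a*, a DNA methyltransferase, by 0.16 at 25 nM RA. The growth factor gene *Fgf5* fell from 48.8 ± 0.770 to 37.8 ± 0.658 and 36.2 ± 1.16 RPKM (log2 fold changes -0.37 and -0.44). The WNT effector *Lef1* fell from 16.4 ± 0.923 to 13.3 ± 0.528 and 11.2 ± 0.0587 RPKM, and *Tcf7l1*, a repressor of the same family, from 1.28 ± 0.132 to 0.804 ± 0.0896 RPKM at 1 µM RA (adjusted p = 4.6e-05 by edgeR's LRT). *Pou5f1*, *Nanog* and *Cdh1*, chosen after their values were seen, were not called at 1 µM RA, with log2 fold changes of 0.03, 0.06 and -0.07.

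**Figure D5:**
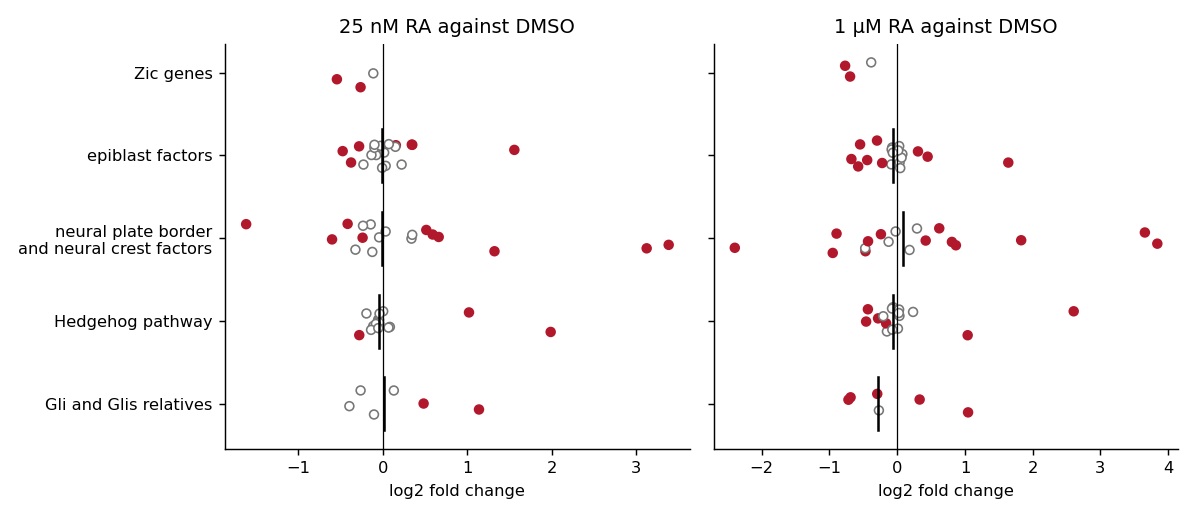
Log2 fold changes from counts summed per gene, for 25 nM RA (left) and 1 µM RA (right) against DMSO, of the tested genes of each list and of the 3 Zic genes tested. Filled points passed the test at an adjusted p under 0.1, open points did not, vertical bars are the medians of the lists, and vertical scatter within a list has no meaning. Each list has called genes on both sides of 0 at 1 µM RA, and *Zic2* and *Zic5* lie below 0 at both doses.

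Some markers of other cells moved with RA as well. Beside them, 8.05% of all genes tested were called with the lower dose and 19.7% with the higher one. No marker list was compared with these shares by a test. Of 6 markers of committed neural cells, 4 were tested and none was called at either dose. The summed RPKM of 5 definitive endoderm markers was 49.6 to 50.2 in DMSO, 41.8 to 42.3 with 25 nM RA and 38.7 to 42.3 with 1 µM RA, and 3 of the 5 fell at each dose. *Sox17* had 6.76 ± 0.114 RPKM in DMSO and 3.43 ± 0.129 RPKM with 1 µM RA, and *Foxa2* had 14.4 ± 0.772 and 9.78 ± 0.0306 RPKM. That of 8 paraxial mesoderm markers was 60.5 to 61.8, 53.6 to 56.8 and 51.2 to 54.3, with 4 higher and 2 lower at each dose among 7 tested. The fibroblast markers, of which 2 of 9 averaged at least 1 RPKM, summed to 6.42 to 6.61, 6.14 to 6.41 and 5.60 to 5.76. Of 8 tested, none was called at 25 nM RA and 3 fell at 1 µM RA. None of the 9 was at 0 in DMSO, where the lowest, *Lum*, had 0.0208 ± 0.00288 RPKM and the highest, *Col1a2*, 2.65 ± 0.0249 RPKM. Of 7 markers of naive ESCs, 2 rose at each dose, from means of only 0.121 and 0.156 RPKM in DMSO. The most abundant of the 7 was not called at either dose. The part of such cells in the Zic values was not tested.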

How the data were processed

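RNA-seq of 6 NMP samples was analysed, grouped by the sample labels. The authors aligned 50-base single-end reads to mm10 (TopHat2 2.0.13 and Bowtie2 2.2.5.0 in the submitters' processing notes) and used expectation-maximization to assign reads to transcripts. These estimated counts were deposited by the authors without normalization, and the deposited RPKM values were calculated by the authors per transcript length and reads. Whether reads were counted by strand is not given in the sources used here.

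After rounding, the counts of all 6 samples entered 1 edgeR 4.0.16 fit (R 4.3.3) with TMM, filterByExpr, a coefficient for each condition and the LRT of the methods. Benjamini-Hochberg adjustment ran over 22074 transcripts, or over 15143 genes after summing counts per gene. Duplicates differed by more than sampling noise and were counted separately. In simulated counts with known changes, the LRT made more false calls than its threshold allows, by a wide margin among transcripts and a narrow one among genes. DESeq2 1.42.0 (Wald test, size factors), the quasi-likelihood test of edgeR, total counts, other filters, fewer samples, the replicate block and an adjusted p under 0.05 served as alternatives.

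The members and gene lists were chosen with earlier results of these data known. Named are the 4 members, up to 4 genes per list and direction with the largest log2 fold change, neighboring genes, the nearest patterns, and NMP and RA response checks. *Pou5f1*, *Nanog*, *Cdh1*, *Shh*, *Dhh*, *Sox17*, *Foxa2*, *Lum* and *Col1a2* were chosen outside this rule, after their values were seen. Some genes that this rule names are not reported here. Coding sequences are from GENCODE vM21 and promoters from RefSeq (GRCm38.p6), which matched 3 of 4 members. Positions of genes and transcripts are those of the deposited annotation, those of coding stretches are from GENCODE and those of promoters from RefSeq. Python 3.11.15, pandas 2.3.3 and matplotlib 3.10.9 made tables and figures.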

Additional observations from a re-analysis of the deposited data

How the results depend on the processing

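*Zic2* and *Zic5* were called lower at 1 µM RA, and *Zic2* at 25 nM RA, under each of the alternatives run, whether transcripts or summed genes were tested. The log2 fold change of *Zic2* lay between -0.59 and -0.48 at 25 nM RA and between -0.85 and -0.69 at 1 µM RA over 15 alternatives, and that of *Zic5* between -0.30 and -0.22 and between -0.77 and -0.63. The genes were chosen on these contrasts, so calls that recur in refits of the same samples add no support. The comparison of the 2 doses depended on the test. Of the 4 transcripts, 1 was called between the doses by edgeR's likelihood ratio test, 0 by its quasi-likelihood test, 0 by DESeq2, 2 on total counts and 2 with the replicate block. Leaving out either sample with 25 nM RA left 0 called, without 1 µM RA replicate 1 the transcript called was *Zic2* in place of *Zic5*, and over all single samples left out the number ran from 0 to 1. With counts summed per gene, the 2 genes called at 25 nM RA became 1 by DESeq2, and without DMSO replicate 2 or 25 nM RA replicate 1 (range 1 to 2), each time by the loss of *Zic5*. The 2 called between the doses ran from 1 to 2 as well, with *Zic2* lost without either 25 nM RA replicate or without 1 µM RA replicate 2.

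Over all transcripts, 815 were called at 25 nM RA, 272 by the quasi-likelihood test, 400 by DESeq2 and 541 to 976 with 1 sample left out. At 1 µM RA 1833 were called, 873 and 975 by these tests and 1090 to 1832 with 1 sample left out. Between the doses 398 were called, 2 and 114 by these tests and 265 to 599 with 1 sample left out. Over all genes, 1219 were called at 25 nM RA, 548 by DESeq2 and 799 to 1345 with 1 sample left out. At 1 µM RA 2983 were called, 1549 by DESeq2 and 1922 to 2838 with 1 sample left out. Between the doses 516 were called, 336 by the quasi-likelihood test, 154 by DESeq2, 340 at an adjusted p under 0.05 and 205 to 577 with 1 sample left out. The cause was not tested.

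The long non-coding RNA *2610035F20Rik* was called lower at both doses under every alternative run, with an adjusted p by those edgeR and DESeq2 fits from 1.8e-06 to 0.040 at 25 nM RA and from 5.0e-08 to 0.0031 at 1 µM RA. Its log2 fold change between the doses, not called, ran from -0.38 to 0.076 with 1 sample left out, and turned to 0.05 without 25 nM RA replicate 1 and to 0.076 without 1 µM RA replicate 1. Of the 18 neural plate border and crest factors tested, DESeq2 called 6 at 25 nM RA and 7 at 1 µM RA in place of 10 and 13. The replicate numbers did not pair the samples, as same-numbered samples correlated between -0.059 and 0.049 in their deviations from the condition means, and with the replicate block 769, 1583 and 375 transcripts were called in the 3 comparisons. Depth limits *Zic1* and *Zic4*, for which no change could be resolved. The log2 fold change of *Zic1* at 25 nM RA ran from -0.42 without 25 nM RA replicate 1 to 0.21 without 25 nM RA replicate 2.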
